A study of Homo sapiens with 3 samples.

Results

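The 40 cell division genes described here comprise 14 genes of S phase and its entry and 26 genes of G2 and mitosis, out of 32738 genes in the count table. They were taken as a given list of gene symbols and divided by phase from textbook knowledge, and all 40 were found in the table. Chambered cardiac organoids (CCOs) were made from H7, a human embryonic stem cell line, and dissociated on 3 days of differentiation for droplet single-cell RNA sequencing. D8 CCOs were taken right after cells of a cardiomyocyte differentiation, guided by CHIR99021 and then IWP-2, had been aggregated in Matrigel. From aggregation to D14 the CCOs were kept in cardio-sphere growth medium (CGM) with thrombin, cardiotrophin-1, EGF, FGF-2, Wnt-3A and EDN1, so D8 and D14 share it. D14 CCOs were taken after expansion in CGM, and D21 CCOs after a further week in a spinner flask with RPMI-1640 and B27. Each day has 1 library of dissociated cells, all from 1 line. Day and library, and for D21 also medium and vessel, thus cannot be told apart, and no comparison carries a test. Intervals are at 95% and cover counting error only. The files hold unique molecular identifier (UMI) counts, that is, captured mRNA molecules read at their 3′ end.

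A dividing cell copies its DNA in S phase and separates the copies in mitosis, and the genes for each task are switched on as the cell reaches it. E2F factors drive many S phase genes, while the DREAM complex and MuvB with B-MYB and FOXM1 act on G2/M genes through the cell cycle homology region (CHR) and CCAAT boxes. In the heart, cardiomyocytes (CMs) divide before birth and largely leave the cell cycle after it, whereas fibroblasts, endothelial cells and liver precursors can go on dividing.

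The DNA ahead of the genes differed between the phases. RefSeq promoter windows of the build GRCh38.p14, from 250 bases before to 50 bases after a start, were found for 33 of the 40 genes, 11 of S phase and 22 of G2/M. A CHR element, searched as TTTGAA or TTCGAA on both strands, was held by 17 of the 22 G2/M genes (77.3%) and by 2 of the 11 S phase genes (18.2%), beside 16.4% of all 35116 windows. A CCAAT box was held by 19 G2/M genes (86.4%) and 8 S phase genes (72.7%), beside 34.6% of all windows. An E2F site, searched on both strands as TTGGCGC or TTCCCGC or TTCGCGC or TTGCCGC, was held by 10 of the 11 S phase genes (90.9%), by 4 G2/M genes (18.2%) and by 13.0% of all windows. Both CHR and CCAAT were held by 15 G2/M genes (68.2%), by 2 S phase genes, MCM6 and RRM1 (18.2%), and by 6.38% of all windows. A gene with several windows counts as holding a motif when any window does, and on that footing the shares of all 27305 genes of the promoter table were 19.5% for CHR, 39.7% for CCAAT, 15.3% for E2F and 7.85% for CCAAT with CHR. On the other strand a CCAAT box can share letters with TTGGCGC, and matches describe letters, not binding.

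4 G2/M promoters are shown for the pairing of CHR and CCAAT, with both in capitals on either strand (ATTGG and TTCAAA are their reverse complements), 5′ to 3′ along the gene, each with up to 20 bases on either side and none past the start. They belong to CCNB2 (cyclin B2), CDC20 (activator of the anaphase-promoting complex), PLK1 (a mitotic kinase) and TOP2A (topoisomerase IIα, which untangles the copied DNA).
CCNB2, chr15:59104896-59105142 (plus strand): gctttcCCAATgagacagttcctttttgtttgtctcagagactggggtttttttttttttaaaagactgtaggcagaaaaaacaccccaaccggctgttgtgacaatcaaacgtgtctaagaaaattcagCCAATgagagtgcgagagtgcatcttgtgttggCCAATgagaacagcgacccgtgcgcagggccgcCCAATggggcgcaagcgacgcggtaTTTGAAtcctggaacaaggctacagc
CDC20, chr1:43358783-43358950 (plus strand): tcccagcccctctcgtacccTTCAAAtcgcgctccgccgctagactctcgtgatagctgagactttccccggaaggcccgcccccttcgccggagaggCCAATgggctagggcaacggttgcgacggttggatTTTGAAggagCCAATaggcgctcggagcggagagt
PLK1, chr16:23678796-23678885 (plus strand): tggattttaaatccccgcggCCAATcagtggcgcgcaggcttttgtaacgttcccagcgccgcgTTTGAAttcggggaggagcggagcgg
TOP2A, chr17:40417925-40418146 (minus strand): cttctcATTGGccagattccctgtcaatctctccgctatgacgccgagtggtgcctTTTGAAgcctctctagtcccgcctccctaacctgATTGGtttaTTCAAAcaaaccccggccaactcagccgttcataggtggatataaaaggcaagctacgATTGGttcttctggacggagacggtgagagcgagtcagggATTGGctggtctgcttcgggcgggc

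3 S phase promoters are shown for the E2F site, in capitals on either strand: GINS2 (a subunit of the replicative helicase), TYMS (thymidylate synthase, which makes dTMP) and MCM6 (a subunit of the MCM2-7 helicase). In MCM6 the capitals at each of 2 places are 2 overlapping matches, TTGGCGC and the reverse complement of TTCGCGC.
GINS2, chr16:85688959-85689005 (minus strand): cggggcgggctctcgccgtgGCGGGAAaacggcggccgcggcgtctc
TYMS, chr18:657594-657640 (plus strand): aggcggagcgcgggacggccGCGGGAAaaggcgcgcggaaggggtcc
MCM6, chr2:135876503-135876614 (minus strand): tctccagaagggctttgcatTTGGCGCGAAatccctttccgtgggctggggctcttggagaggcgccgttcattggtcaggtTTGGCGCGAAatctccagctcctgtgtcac

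After cells with 2000 genes or fewer, 7500 or more, or 10% or more mitochondrial UMIs had been set aside, 2657, 3585 and 1946 cells remained for D8, D14 and D21, with 4007 to 95021 UMIs each and medians of 15316, 12282 and 14105.5. The mitochondrial limit alone removed 11, 204 and 1982 otherwise passing cells, so D21 is the day it touches most. Of the kept cells, 66 carry a barcode that also occurs in another library. Levels are given as UMIs per 1000000 UMIs of the same cells (CPM). Since fewer dividing cells and less RNA per dividing cell both lower a CPM, shares of cells are given further below.

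Over all cells, both groups of genes were highest at D8, but they fell at different times. The 14 S phase genes summed to 482 CPM at D8 (476 to 488), then 334 (329 to 339) and 329 (322 to 335) on the later days. The 26 G2/M genes summed to 2160.4 CPM (2147 to 2174), 1787 (1776 to 1799) and 949 (938 to 959). The S phase sum was thus 1.44-fold lower at D14 than at D8 and 1.017-fold lower at D21 than at D14, an interval of 0.993 to 1.04. With a mitochondrial limit of 5%, however, the S phase sum was higher at D21 than at D14, at 399 against 356 CPM. The G2/M sum was 1.21-fold lower at the first step and 1.88-fold lower at the second (1.86 to 1.91). The S phase UMIs per G2/M UMI were 0.223, 0.187 and 0.346 in day order, and the intervals of the 3 days do not overlap.

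**Figure D1:**
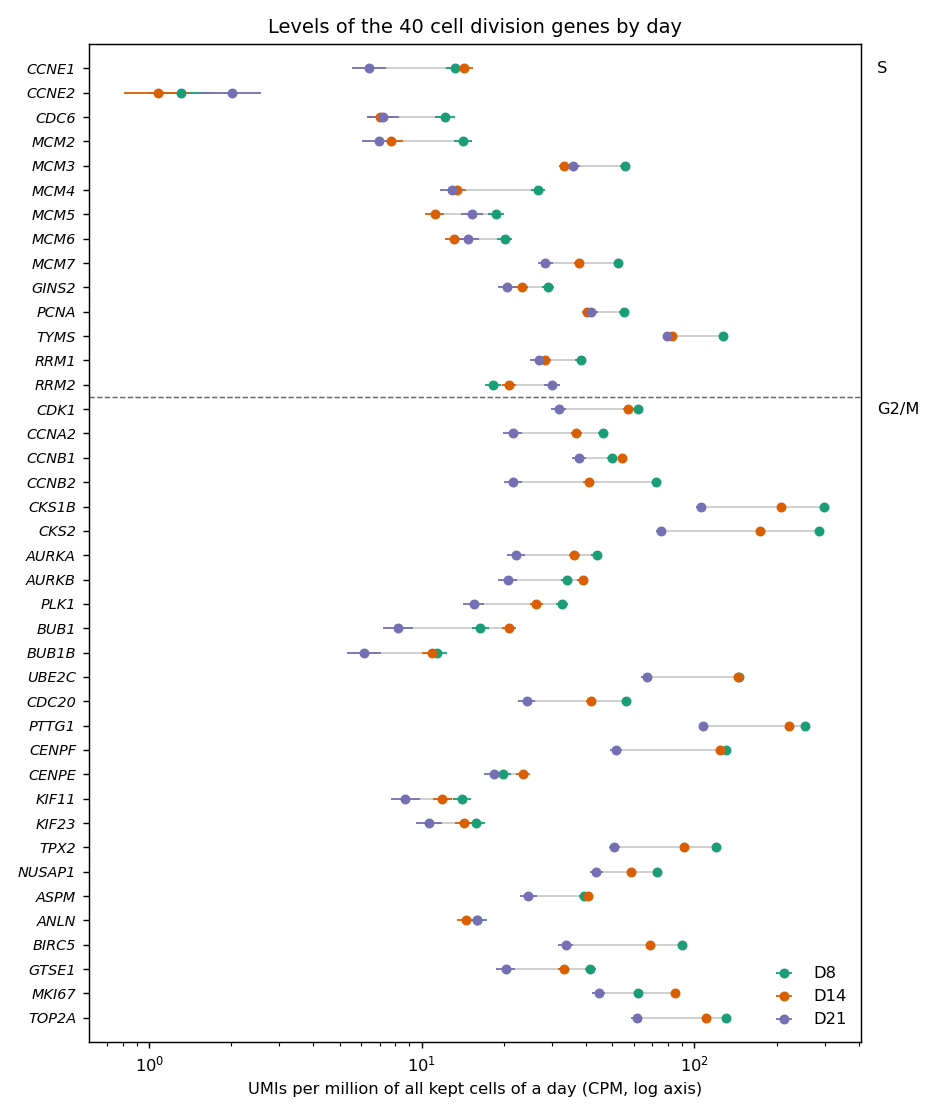
Level of each of the 40 genes in all kept cells of D8, D14 and D21, in CPM on a log axis, with S phase genes above the dashed line and G2/M genes below it; bars are 95% Poisson intervals, 1 library per day. Most G2/M genes have D8 and D14 close together and D21 to the left of both, while for many S phase genes D14 and D21 lie together and D8 to the right.

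From D8 to D14, 7 S phase genes were over 1.5-fold lower and none higher, of the 13 at 10 CPM or more on either day. Among all 9105 genes at that level, 5.65% were lower and 18.5% higher, with a median log2 ratio of 0.08, set against a median of -0.55 over the 14 S phase genes. Of the 26 G2/M genes, all at that level, 2 were lower and none higher, with a median of -0.21. The largest falls were in MCM4, at 26.7 CPM at D8, 13.5 at D14 and 12.9 at D21, in MCM2, at 14.2, 7.70 and 6.96, and in CCNB2, at 72.0, 40.9 and 21.6. MCM4 and MCM2 are subunits of the helicase ring loaded onto DNA before replication. The 3 genes with the largest ratios upward stayed within 1.5-fold: MKI67, which coats mitotic chromosomes, went from 62.2 to 84.7 CPM, BUB1, a kinase of the spindle checkpoint, from 16.4 to 20.9, and CENPE, a kinetochore motor, from 19.9 to 23.5.

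From D14 to D21 the picture was the other way around. 20 of the 26 G2/M genes were over 1.5-fold lower and none higher, while 1 of the 11 S phase genes at 10 CPM or more, CCNE1, was lower. Among all 9333 genes at that level, 22.9% were lower and 10.2% higher. The median log2 ratio was -0.83 over the 26 G2/M genes and -0.01 over the 14 S phase genes, beside -0.20 over all genes. BUB1 fell most, from 20.9 to 8.19 CPM, followed by CENPF, a kinetochore protein, from 124 to 51.6, and CKS2, a small partner of CDK1, from 174 to 75.1. Among genes at 10 CPM or more, RRM2 had the largest ratio upward, at 18.2 CPM at D8, 20.9 at D14 and 30.03 at D21, and MCM5 went from 11.1 to 15.3 CPM and MCM6 from 13.1 to 14.7, all within 1.5-fold of D14. Below that level, CCNE2 (cyclin E2) went from 1.07 to 2.01 CPM, from 54 and 62 UMIs. RRM2 is the small subunit of ribonucleotide reductase, which makes the dNTPs for replication. With TMM scaling, which sets days to a trimmed mean of their gene ratios, 13 G2/M genes were lower and 2 S phase genes higher, and with a mitochondrial limit of 5% the counts were 12 and 2. From D8 to D21, 1 of the 39 genes at 10 CPM or more, RRM2, was over 1.5-fold higher, beside 21.2% of all 9155 genes, and CCNE2, under that level, went from 1.30 to 2.01 CPM.

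By role, the groups of S phase genes moved unevenly. The genes of S phase entry and origin licensing, CCNE1 and CCNE2 (the E cyclins) and CDC6 (which loads the helicase), summed to 26.7, 22.4 and 15.6 CPM on the 3 days. Within it CCNE1 stood at 13.3, 14.3 and 6.41 CPM and CDC6 at 12.1, 7.05 and 7.22, and CCNE2 was the lowest of the 40 genes, at 1.30, 1.07 and 2.01 CPM, where 3 UMIs correspond to 0.0641, 0.0597 and 0.0971 CPM. The 7 helicase genes, MCM2 to MCM7 and GINS2, summed to 217, 140 and 135 CPM. The genes of the sliding clamp (PCNA) and of nucleotide supply (TYMS, RRM1 and RRM2) summed to 238, 172 and 178 CPM. These 2 sums thus had their fall before D14, but RRM2 did not share it, at 18.2, 20.9 and 30.03 CPM.

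The roles within G2/M fell together after D14. CDK1, the mitotic kinase, with its partners CCNA2, CCNB1, CCNB2, CKS1B and CKS2, summed to 815, 570 and 293 CPM. CKS1B, at 299, 207 and 105 CPM, and CKS2, at 286, 174 and 75.1, declined at each step, and so did CCNA2 and CCNB2. CDK1, at 61.9, 56.9 and 31.8, declined little at the first step. CCNB1 parted from them, at 49.8, 54.3 and 37.8. The kinases and checkpoint genes AURKA, AURKB, PLK1, BUB1 and BUB1B summed to 138, 133 and 72.6 CPM. The anaphase genes UBE2C (the ubiquitin-conjugating enzyme of the anaphase-promoting complex), CDC20 and PTTG1 (securin, which holds back separase until anaphase) summed to 455, 409 and 199 CPM. The 10 genes of the spindle, kinetochore and cytokinesis summed to 559, 481 and 278 CPM, among them ANLN (anillin, of the contractile ring), which did not share the fall, at 15.9, 14.5 and 15.9 CPM. MKI67 and TOP2A summed to 193, 195 and 106 CPM.

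A further 71 cell cycle genes, not among the 40, were read as counts. From D14 to D21, 18 of 30 other G2/M genes at 10 CPM or more and 5 of 18 other S phase genes were over 1.5-fold lower, none was higher, beside 22.9% of all genes lower, so the S phase count lies near that share. The medians over the whole lists were -0.79 and -0.31 log2. From D8 to D14 the counts were 3 of 32 lower and 1 higher for G2/M and 8 of 21 lower for S phase, beside 5.65% of all genes lower and 18.5% higher. Among them, HELLS, a chromatin remodeller, fell most from D8 to D14, from 90.6 to 35.3 CPM, and CDCA7 fell most from D14 to D21, from 29.5 to 8.997 CPM. CENPA, the centromeric histone, rose from 17.6 to 27.6 CPM from D8 to D14. Of 8 regulators of the cycle, 1 of 5 at 10 CPM or more was lower from D14 to D21, also near the share of all genes, and WEE1, a kinase that holds back CDK1, stood at 40.2 and 50.6 CPM.

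The share of cells with several G2/M genes was lower on each later day. When cells were thinned to 4000 UMIs each, which left out no kept cell, a UMI of 3 or more different G2/M genes was found in 1115 of 2657 cells of D8 (41.96%, exact binomial interval 40.1% to 43.9%), 877 of 3585 cells of D14 (24.5%, 23.1% to 25.9%) and 312 of 1946 cells of D21 (16.03%, 14.4% to 17.7%). UMIs of 3 or more S phase genes were found in 17.2% (15.8% to 18.7%), 10.9% (9.88% to 11.9%) and 11.5% (10.1% to 13.0%). At the full depth of each cell, these shares were 86.5%, 61.3% and 40.6% for G2/M and 63.5%, 35.3% and 32.9% for S phase. The share of cells with the G2/M set thus declined at both steps and that with the S set at the first, as the summed levels did. The sets differ in size, so their shares are not compared with each other. Free RNA in droplets can add to either, and no class here is known to lack these genes. The lowest G2/M share in any class was 3.58%, in D21 endoderm-like cells.

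Among cells that held either set after thinning, those with the S set alone were 8.46% of 1218 cells at D8 (6.95% to 10.2%), 6.999% of 943 at D14 (5.45% to 8.82%) and 21.8% of 399 at D21 (17.8% to 26.2%). Cells with the G2/M set alone were 62.5%, 58.6% and 44.1%, and cells with both were 29.1%, 34.4% and 34.1%. The share with the S set alone also rises when fewer cells hold the G2/M set, and it uses the same UMIs as the sums. It is thus not separate support for them. Over all cells, the S set shares of D14 and D21 had overlapping intervals, as given above. Across cells, the summed log-normalized values of the 2 groups had a Pearson r of 0.37 over 2657 cells of D8, 0.54 over 3585 of D14 and 0.50 over 1946 of D21, a description that shares each cell's depth.

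Each gene was also read by how far it was confined to cells with G2/M genes. For each gene, its level in cells with at least 3 other G2/M genes was set against its level in cells with no other G2/M gene, after thinning. Since G2/M genes chose the cells, this favours G2/M genes over S phase genes. No S phase set was used in the same way, so no conclusion is drawn from the difference between the phases. At D21 the median ratio was 58.1-fold over the 26 G2/M genes (8.29 to 161) and 6.19-fold over the 14 S phase genes (2.74 to 169). At D8 these medians were 15.0-fold and 3.36-fold, and at D14 30.01-fold and 5.31-fold. RRM2, at 169-fold at D21, was the S phase gene most bound to cells with G2/M genes, with 91.8% of its UMIs in them, while CCNE1 had 33.3%. At the other end of the G2/M genes stood CKS1B, at 8.29-fold with 57.5% of its UMIs in such cells, beside TOP2A with 94.5% and MKI67 with 96.2%. Of the D21 cells with no other G2/M gene, 17.8% had a CKS1B UMI after thinning and 0.898% a MKI67 UMI.

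The genes most like the sums were ranked by the lowest of the 3 days' Pearson r over cells. They were sought outside these lists, which were matched by symbol only, so a listed gene under another symbol can appear. For S phase they were KIAA0101 (r of 0.65 to 0.74), CENPU, ZWINT, CHAF1A and TK1. For G2/M they were DEPDC1 (0.76 to 0.82), PRC1, CDKN3, SGOL2 and UBE2S. TK1 is thymidine kinase, CHAF1A a subunit of chromatin assembly factor 1, and PRC1 a bundler of the central spindle.

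To read the genes by cell type, cells were clustered without the 40 genes, the other cell cycle genes and the variable genes that correlated with them. The aim was to keep dividing cells with the cells they otherwise resembled. Clusters were then named from fixed markers. CM-like cells numbered 589 (mostly cluster 4), 796 (mostly cluster 3) and 576 (clusters 6 and 16) on the 3 days, and their 10 CM markers summed to 11318, 35060 and 66626 CPM. Stromal-like cells were 385 at D14 (cluster 8) and 955 at D21 (cluster 2), endoderm-like cells 259, 208 and 307 (clusters 12, 13 and 10), and endothelial-like cells 50, 57 and 38 (cluster 14). A cluster of 209 cells at D8 and 86 at D14 carried SOX2 and TFAP2A with other markers of an epithelial class, and 3 large clusters of D14 and 2 of D8 stayed unnamed. Since nearly every class is held by a different cluster on each day, a change within a class also follows which cells the class holds. The endoderm-like cells of D21 had the sum of all 11 endoderm markers at 92130 CPM, beside 1603 at D8.

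**Figure D2:**
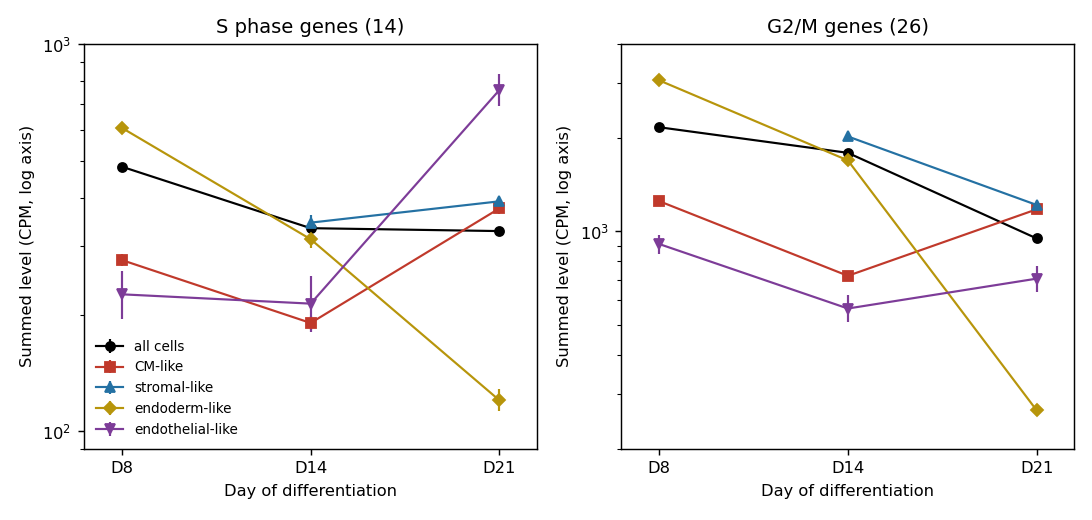
Summed level of the 14 S phase genes (left) and the 26 G2/M genes (right) in all cells and in 4 classes on D8, D14 and D21, in CPM on log axes; bars are 95% Poisson intervals, 1 library per day, and no stromal-like class was found at D8. Endoderm-like cells go from the highest to the lowest of the classes shown, and CM-like cells have their lowest values at D14.

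CM-like cells held less of the G2/M genes than endoderm-like cells at D8 and D14 and than stromal-like cells at D14. With the main settings they held as much as stromal-like cells at D21, but this depended on how CM-like cells were chosen. The G2/M sum of CM-like cells was 1250.4 CPM (1228 to 1273), 719 (704 to 735) and 1177 (1153 to 1201) in day order. Their S phase sum was 277 CPM (266 to 287), 190.2 (182 to 198) and 376 (363 to 390). The D21 G2/M sum of the class was 733 CPM with a mitochondrial limit of 20%. It was 376 CPM with the cell cycle genes kept in the clustering and 1113 with a gate on each cell's markers. At D8 the endoderm-like cells had 2.44-fold more of the G2/M sum (2.39 to 2.50) and 2.195-fold more of the S phase sum (2.09 to 2.31), with 24 of 26 and 12 of 13 genes over 1.5-fold higher than in CM-like cells, beside 15.5% of all 8922 genes. CDC6 stood furthest apart, at 25.3 against 3.29 CPM, then RRM2, at 33.1 against 5.55, and UBE2C, at 237 against 60.5. At D14 the endoderm-like cells had 2.35-fold more of the G2/M sum and the stromal-like cells 2.80-fold more (2.73 to 2.89), with 24 of 26 genes higher in each, beside 17% and 21.2% of all genes. AURKB, the kinase of the chromosomal passenger complex, was at 49.0 CPM in stromal-like and 8.89 in CM-like cells, and MKI67 at 120 against 24.2. At D21 the stromal-like cells were at 1.03-fold for G2/M (1.01 to 1.06) and 1.04-fold for S phase (0.997 to 1.09), a difference near the counting error. There 3 of 25 G2/M and 3 of 11 S phase genes at 10 CPM or more were higher in stromal-like cells, beside 23.5% of all 8970 genes, and 2 of each were lower, beside 25.1%. RRM2, at 44.6 against 22.4 CPM, GINS2, at 30.3 against 16.2, and CDK1, at 49.6 against 27.3, were higher in stromal-like cells. ANLN, at 29.8 against 14.2 CPM, PTTG1, at 195 against 107, and MCM6, at 24.3 against 13.6, were higher in CM-like cells.

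From D8 to D14, 19 of the 23 G2/M genes at 10 CPM or more were over 1.5-fold lower in CM-like cells, and 4 of 8 S phase genes, beside 11.9% of all 9087 genes. None of the 40 was higher, beside 20.4% of all genes. CCNB2 fell most, from 40.8 CPM at D8 to 12.3 at D14, with 30.6 at D21. CENPF followed, at 76.8, 30.8 and 60.2 CPM, and then MCM4, at 14.3, 6.13 and 12.5 CPM. TOP2A was at 72.3, 32.3 and 57.5 CPM, so that all of these had their lowest level at D14. Among genes at 10 CPM or more, ANLN, at 9.76 and 11.0 CPM, PCNA, at 24.4 and 23.6, and MCM6, at 10.2 and 9.33, had the highest ratios, and below that level RRM2 stood at 5.55 and 6.93 CPM. The G2/M count depended on how the class was chosen: 4 genes were lower with the cell cycle genes kept in the clustering, 2 with a gate on each cell's markers and 11 at a clustering resolution of 0.4. The gate took in 1448 cells of D14, beside 796 in the class. Unnamed cluster 5 of D14, with 571 cells, was outside the class. Its CM markers summed to 13097 CPM, above the 11318 of the D8 class and below the 35060 of the D14 class.

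From D14 to D21, all 10 S phase genes at 10 CPM or more were over 1.5-fold higher in CM-like cells, beside 11.7% of all 9129 genes. Of 25 G2/M genes, 19 were higher and none lower, beside 24.5% of all genes lower. The S phase sum was 1.98-fold higher (1.87 to 2.09) and the G2/M sum 1.64-fold (1.59 to 1.69). The medians were 1.09 log2 over the 14 S phase genes and 0.97 over the 26 G2/M genes, against -0.13 over all genes. MCM5 rose most, from 4.53 CPM at D14 to 19.2 at D21 (4.18-fold), then RRM2 from 6.93 to 22.4 (3.21-fold) and KIF11, a motor that separates the spindle poles, from 3.38 to 10.4 (3.04-fold). PCNA stood at 24.4, 23.6 and 44.3 CPM over the 3 days and TYMS at 99.8, 60.4 and 97.2. The lowest ratios among genes at 10 CPM or more were those of CKS1B, at 101 and 98.1 CPM, CKS2, at 82.0 and 88.0, and AURKA, at 25.4 and 34.0. Below that level, CCNE1 went from 8.44 to 5.21 CPM. Outside the 40, 2 of 15 other S phase genes and 11 of 25 other G2/M genes were higher and 1 of each was lower. That S phase count lies near the 11.7% of all genes that were higher, so the S phase rise is read for the listed genes only. The medians over these other S phase and G2/M genes were 0.43 and 0.56 log2. Over those at 10 CPM or more they were 0.14 and 0.35. Among genes outside the 40, NDC80, of the kinetochore, rose from 2.93 to 14.4 CPM and CDCA7 fell from 20.2 to 4.96. All 3 regulators at 10 CPM or more rose, WEE1 from 39.2 to 91.7 CPM.

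**Figure D3:**
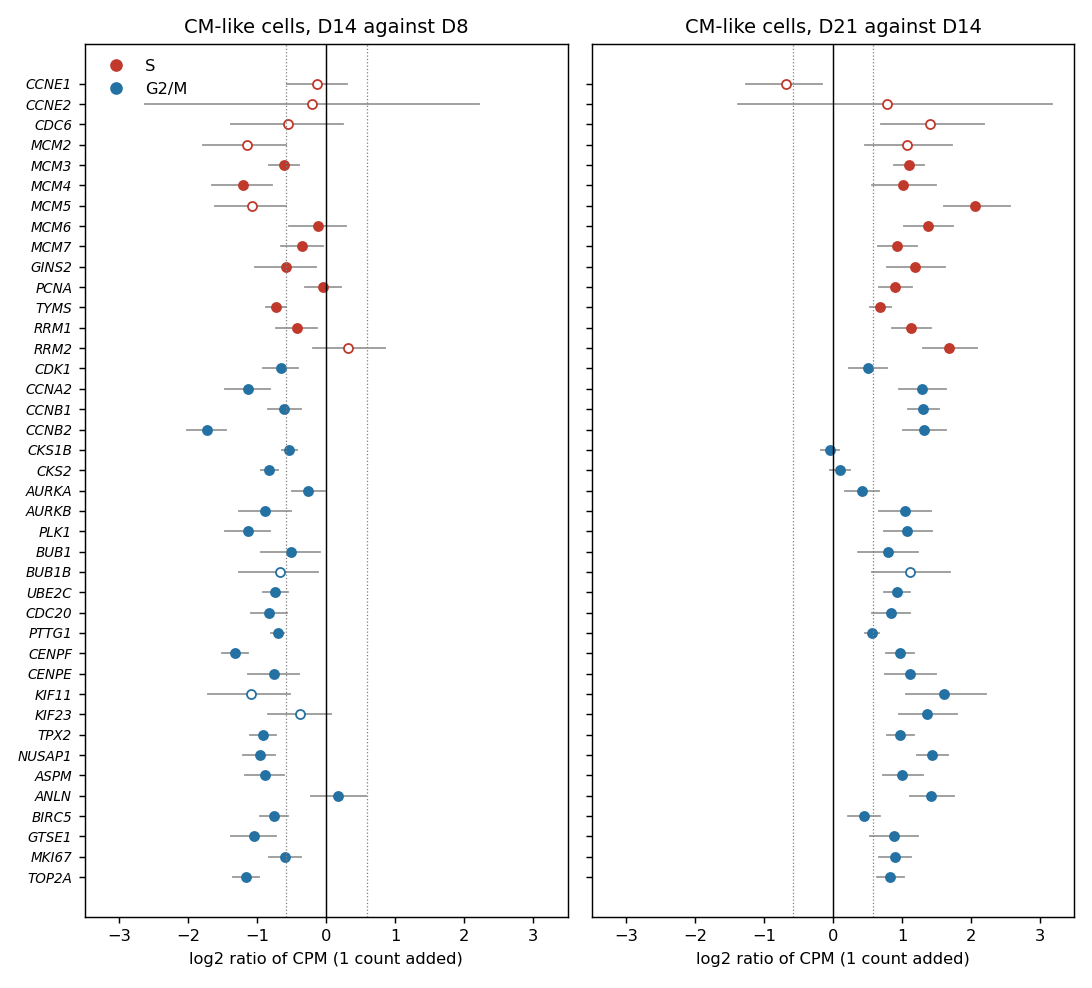
log2 ratio of each gene in CM-like cells, D14 against D8 (left) and D21 against D14 (right), with 95% counting intervals; S phase genes are red and G2/M genes blue, open circles are genes under 10 CPM on both days, and dotted lines mark 1.5-fold. On the left nearly all genes lie below 0, and on the right all lie above 0 except CKS1B and CCNE1.

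For the listed S phase genes, the rise from D14 to D21 held under each of the 5 other ways of choosing CM-like cells. Under each, 9 or 10 of these genes were higher, whereas the G2/M part of the rise did not hold. With a mitochondrial limit of 20% in place of 10%, the class held 1852 cells at D21 in place of 576 and 1306 at D14. Its S phase sum was then 186 CPM at D14 and 353 at D21, with 9 S phase genes over 1.5-fold higher, whereas its G2/M sum was 678 and 733 CPM, with 4 G2/M genes higher. With the cell cycle genes kept in the clustering, which moved 29 of the 107 D21 CM-like cells with the G2/M set out of the class, the S phase sum was 148 and 321 CPM and the G2/M sum 301 and 376, with 9 and 6 genes higher. With a gate on each cell's markers, 9 S phase and 11 G2/M genes were higher.

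The mitochondrial share of a cell moved with both day and G2/M level. The median share was 2.70% in CM-like cells of D8, 5.55% at D14 and 8.402% at D21. Under the limit of 20%, D21 CM-like cells with 5 to 10% mitochondrial UMIs had 1056 CPM of G2/M genes, those with 10 to 15% 594 and those with 15 to 20% 443, while 32 cells under 5% had 3752. Their S phase sum was 365, 336, 353 and, in the 32 cells, 598 CPM. In the bins from 5 to 10% and from 10 to 15%, D14 CM-like cells had 732 and 506 CPM of G2/M genes and 185 and 172 CPM of S phase genes. The D21 cells thus lay above the D14 cells of the same bin, by more for S phase than for G2/M between 10 and 15%. The part of the mitochondrial share in these differences was not tested.

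**Figure D4:**
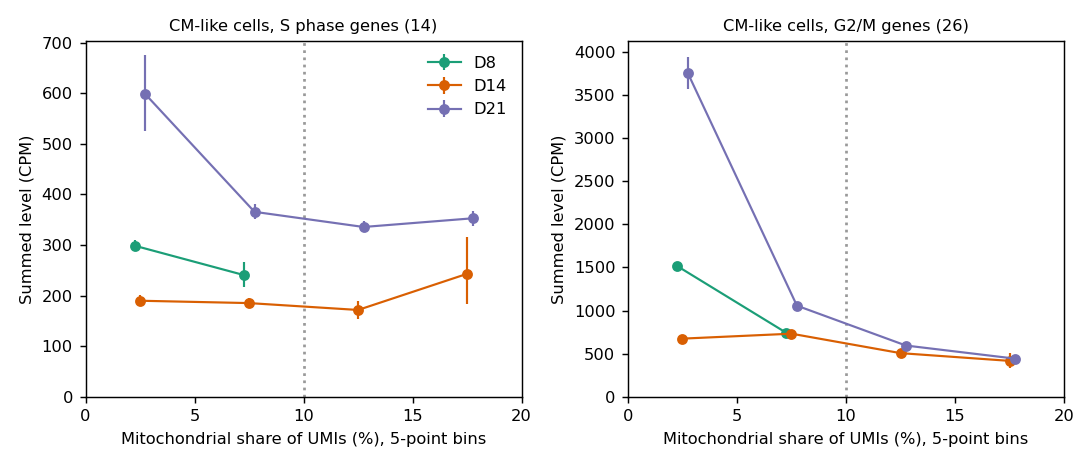
Summed level of the S phase (left) and G2/M genes (right) in CM-like cells, chosen under a mitochondrial limit of 20%, by the mitochondrial share of their UMIs in bins of 5 percentage points, in CPM; bars are 95% Poisson intervals, 1 library per day, the dotted line is the 10% limit, the first D21 bin holds 32 cells and the last D14 bin 20. The D21 S phase values stay above those of D14 in all bins, while the G2/M values of D21 fall towards those of D14.

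The D21 CM-like cells with the G2/M set carried CM markers. The same markers, TNNT2 and ACTC1 among them, named the class, so their presence is partly given by that choice. Without the small cluster 16, the 77 cells with the set had the CM markers at a sum of 54967 CPM, TNNT2 (cardiac troponin T) at 6421 CPM and ACTC1 (cardiac actin) at 12707 CPM. The 416 cells with neither set had 70019, 9105 and 14805 CPM. Their stromal markers summed to 189 and 179 CPM, beside 5346 in the stromal-like cells of D21 with the set. With cluster 16 left in, the 107 cells with the set had endoderm markers at 4143.5 CPM and stromal markers at 424. The 432 cells with neither set had 1496 and 212 CPM. Within cluster 16, endoderm markers summed to 17079 CPM in the 30 cells with the set and 15223 in the 16 with neither. At D8 and D14 the CM markers were also lower in the cells with the set, at 8543 against 12300 CPM (sums over 134 and 445 cells) and at 29537 against 35987 CPM (96 and 689 cells). The stromal markers of these cells were at 919 against 910 CPM at D8 and at 771 against 624 at D14. Median doublet scores were 0.0362 in the 77 cells and 0.0229 in the 416, and at D14 0.0976 and 0.0393. Doublets were kept and their part was not tested.

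The share of CM-like cells with the G2/M set after thinning was 22.8% (19.4% to 26.3%), 12.1% (9.88% to 14.5%) and 18.6% (15.5% to 22.0%) in day order, and with the S set 5.43% (3.75% to 7.58%), 3.64% (2.45% to 5.19%) and 12.7% (10.1% to 15.7%). Unthinned, they were 79.6%, 53.0% and 42.9% for G2/M and 48.6%, 24.6% and 37.5% for S phase, at median depths of 14688, 12797.5 and 12855 UMIs, so that the order of D14 and D21 for G2/M depended on the thinning. Cluster 16 stood apart within the D21 class. Its 51 cells had a median of 7892 UMIs, a sum of endoderm markers of 17305 CPM and a G2/M set in 58.8% (44.2% to 72.4%), while its G2/M sum was 926 CPM, under that of the class. Without it, the D21 shares were 14.7% for G2/M (11.7% to 18.0%) and 12.0% for S phase, and the sums were 1194 and 373 CPM, so the G2/M interval overlapped that of D14 and the S phase interval did not.

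**Figure D5:**
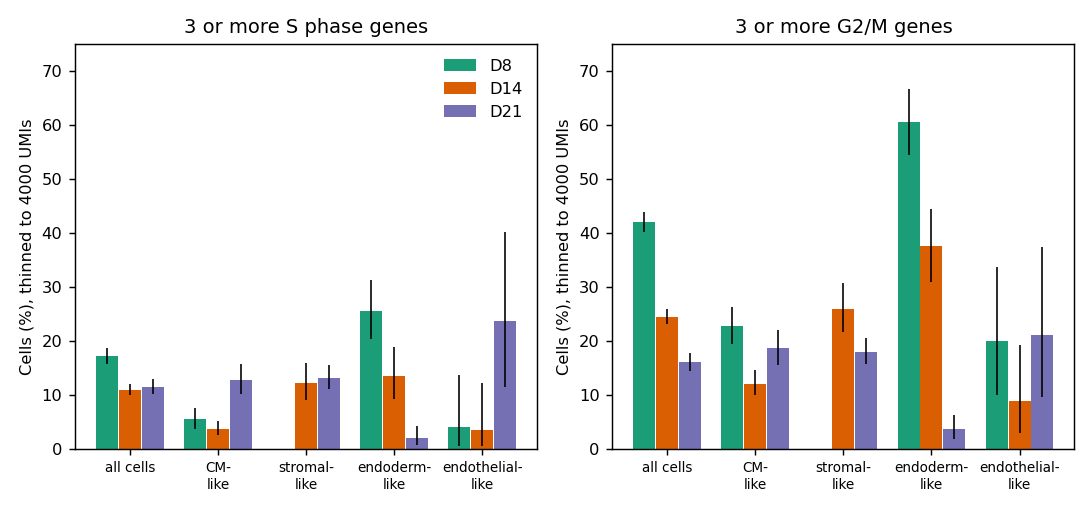
Percentage of cells in which at least 3 of the S phase genes had a UMI (left) and the same for the G2/M genes (right) after thinning every cell to 4000 UMIs, by class and day; bars are percent of the cells of the class, with exact 95% binomial intervals, 1 library per day. Endoderm-like cells go from the highest G2/M share shown at D8 to the lowest at D21, and the S phase share of CM-like cells is highest at D21.

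In the cells named stromal-like the 2 groups of genes went opposite ways after D14, with a limit on the S phase part given below. Their G2/M sum went from 2018 CPM at D14 to 1215 at D21 (1.66-fold lower, 1.62 to 1.70) and their S phase sum from 346 to 392.3 (1.14-fold higher, 1.08 to 1.195). Of 26 G2/M genes, 17 were over 1.5-fold lower, beside 21.3% of all 8974 genes, and 2 of 12 S phase genes were higher and 1 lower, beside 7.98% of all genes higher. BUB1 fell from 32.0 to 8.85 CPM, PTTG1 from 241 to 107 and CKS2 from 173 to 87.3. CDC6 rose from 5.78 to 10.1 CPM and RRM2 from 27.7 to 44.6, and MCM5 stood at 12.2 and 17.6 CPM. The S phase UMIs per G2/M UMI went from 0.171 to 0.323. The G2/M set was found in 25.97% and 18.0% of these cells. The S set was found in 12.2% and 13.2%, with overlapping intervals of 9.11% to 15.9% and 11.1% to 15.5%. The D14 class held 385 cells, but 1753 at a resolution of 0.4 and 1175 with a gate on each cell's markers. Unnamed cluster 1 of D14 had stromal markers at 2309 CPM, beside 3056 in the class. It gave 33.9% of the S phase UMIs of D14 at 25.9% of all UMIs, beside 12.1% at 11.7% for the class. The S phase rise with cluster 1 added was not tested.

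Endoderm-like cells had more of both groups of genes than CM-like cells at D8 and less of both at D21. Their G2/M sum was 3057 CPM at D8, 1690 at D14 and 266 at D21, and their S phase sum 607, 313 and 120.1 CPM. From D8 to D14, 22 of 26 G2/M genes and 11 of 13 S phase genes were over 1.5-fold lower, beside 13.2% of all 8700 genes. RRM2 fell from 33.1 to 9.38 CPM, CDC20 from 92.3 to 34.0 and PCNA from 82.6 to 32.5. From D14 to D21, 26 of 26 and 11 of 12 were lower, where 45% of all 8897 genes were lower and the median of all genes was -0.47 log2. The medians were -2.79 for G2/M and -1.61 for S phase. CENPF fell from 96.6 to 6.11 CPM, UBE2C from 135 to 13.7 and CDC6 from 10.4 to 1.06, whereas TYMS, at 61.1 and 39.7 CPM, fell least, and RRM2, at 9.38 and 12.9, did not fall. The G2/M set was found in 60.6%, 37.5% and 3.58% (1.80% to 6.32%) of these cells in day order, at median depths of 23570, 21050 and 21922 UMIs. At D21 all 25 G2/M genes and all 10 S phase genes at 10 CPM or more were over 1.5-fold lower in endoderm-like than in CM-like cells, beside 48.6% of all 8874 genes. ANLN was at 2.26 against 29.8 CPM and MCM6 at 2.12 against 24.3, while CKS1B, at 57.5 against 98.1, and RRM2, at 12.9 against 22.4, differed least of these 35 genes. The median over all genes was -0.55 log2 in this comparison, beside -2.35 over the G2/M and -1.65 over the S phase genes, in cells whose endoderm markers summed to 92130 CPM.

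Smaller and unnamed groups were also read. The SOX2 and TFAP2A epithelial-like cells of D8 had the highest levels of any group, with 3216 CPM of G2/M genes, 778 of S phase genes and the G2/M set in 72.7% of 209 cells (66.1% to 78.6%). At D14 they had 2100.1 and 350.4 CPM. Among the unnamed clusters of D14, cluster 9 had 3089 CPM of G2/M genes, cluster 1 2576 and cluster 5 890.1, so unnamed cells spanned the range from near CM-like cells to the top of the day. The endothelial-like cells were few, and their S phase sum was 226, 213 and 761 CPM and their G2/M sum 910.5, 565 and 705. At D21 their S phase UMIs per G2/M UMI, from 446 and 413 UMIs in 38 cells, were 1.08 (0.942 to 1.24), the highest of any class. There 12 of 13 S phase genes were over 1.5-fold higher than at D14, beside 28.7% of all 9120 genes, and 11 of 23 G2/M genes.

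The cells that supplied the UMIs differed between days. CM-like cells gave 12.0% of the G2/M UMIs of D8 and 9.01% of those of D14, at 22.2% of the cells on both days, and 31.6% of those of D21, at 29.6% of the cells. Stromal-like cells gave 56.2% of the G2/M UMIs and 52.4% of the S phase UMIs of D21, at 49.1% of its cells, and endoderm-like cells 6.83% and 8.90% at 15.8%. The S phase UMIs per G2/M UMI were higher at D21 than at D14 in each class present on both days: 0.320 against 0.264 in CM-like, 0.323 against 0.171 in stromal-like, 0.452 against 0.185 in endoderm-like and 1.08 against 0.378 in endothelial-like cells, with intervals that do not overlap in any of them.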

How the data were processed

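Single-cell RNA of CCOs of the H7 line was captured with a 3′ kit (1 library for each of D8, D14 and D21). The authors deposited 1 merged table of UMI counts per gene and barcode, not normalized. The submitters' processing notes name Cell Ranger, Seurat 3.2.1 and hg19. The table has 17327 barcodes and 32738 genes, of which 20394 were seen in at least 10 barcodes, and no column of it was left unmapped. The members and lists were chosen with earlier results of these data known.

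A cell was kept if it had over 2000 but less than 7500 genes and if 13 mitochondrial genes held below 10% of its UMIs. Depth per kept cell was 4007 to 95021 UMIs. The D8, D14 and D21 totals were 46767738, 50247286 and 30898727 UMIs. Counts were summed by day and class and divided by the sum of all UMIs (CPM), with exact Poisson intervals, and ratios carry a binomial interval. A gene was called at 1.5-fold, 1 count added, among genes at 10 CPM or more in either group. Cells were clustered with Seurat 5.3.0 (R 4.3.3) on 1782 of 2000 variable genes, after 81 on cell cycle lists and 137 with a correlation above 0.15 with the sum of the 40 genes had been dropped (20 components, resolution 0.8). A cluster was named from at least 3 fixed markers, each 2-fold above the other cells. TMM used edgeR 4.0.16. Cells were thinned to 4000 UMIs with a fixed seed. Doublets were kept, since the automatic threshold of Scrublet (scanpy 1.11.5) called under 0.5% of each library. The functions that call ratios were tested on simulated data.

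All 40 genes were examined in each comparison, and those named have the 3 largest ratios each way or stand for their role. The genes most like the sums were taken from those with a UMI in at least 400 cells. Promoter windows are from RefSeq on GRCh38.p14. They were matched by symbol and not combined with hg19 coordinates.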

Additional observations from a re-analysis of the deposited data

How the results depend on the processing

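No paired analysis was possible because each day has 1 library, and none could be left out. Of 236 values recomputed under another setting, 154 moved by less than their counting interval (counts of genes, by less than 1.5 times) and 82 moved by more. The order of D14 and D21 turned for the S phase sum over all cells with a mitochondrial limit of 5%, for the share of cells with the S set unthinned and with 2 different genes, and for the CM-like share with the G2/M set unthinned (12.1% and 18.6% thinned, 53.0% and 42.9% unthinned). A limit of more than 1000 genes per cell and a resolution of 1.2 moved none of them. Leaving out the small D21 cluster, chosen after the data were seen, moved neither of the values counted here for that setting. The D21 CM-like share with the G2/M set, not counted here, was lower without that cluster. Its interval then overlapped that of D14, as given above. The alternative by mean log-normalized values per cell was not run. Depth limits CCNE2 most. The cause was not tested for any value below.

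With a mitochondrial limit of 5%, the S phase sum was 491 CPM at D8, 356 at D14 and 399 at D21, the G2/M sum was 2185, 1989 and 1197, and the log2 of S phase over G2/M was -2.48 at D14 and -1.59 at D21. The G2/M set was then in 26.02% of D14 and 18.1% of D21 cells and the S set in 13.9% of D21 cells. The G2/M genes were 1 higher and 1 lower at D14 than at D8 and 12 lower at D21 than at D14, with 2 S phase genes higher. With a limit of 20%, the S phase sum was 327 CPM at D14 and 317 at D21, the G2/M sum 1727 and 758, the D21 log2 ratio -1.26 and the D21 share with the G2/M set 13.4%. In D21 CM-like cells the sums were then 353 (S phase) and 733 (G2/M), with 4 G2/M genes higher than at D14, and in D21 endoderm-like cells 110.5 and 222. Without the top 5% of doublet scores, the G2/M sum was 2118 at D8 and 1713 at D14, the S phase sum 327 at D14, and the log2 ratios -2.14, -2.39 and -1.56.

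As a geometric mean over genes, the log2 ratios of S phase to G2/M were -1.24, -1.57 and -0.76, and without PCNA, MCM7, PTTG1, CKS1B and CKS2 they were -1.82, -2.21 and -1.35, so D21 kept the highest ratio. With 2 different genes in place of 3, the S set was in 36.5%, 22.4% and 22.0% of cells and the G2/M set in 62.7%, 42.1% and 25.0%. With 5 genes the shares were 5.27%, 3.54% and 4.47%, and 23.6%, 15.8% and 10.5%. Unthinned they were 63.5%, 35.3% and 32.9%, and 86.5%, 61.3% and 40.6%.

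At 2-fold over all cells, 0 S phase and 0 G2/M genes were lower at the first step (D8 to D14) and 6 G2/M genes at the second. In CM-like cells 1 S phase and 6 G2/M genes were lower at the first step and 11 G2/M genes higher at the second. With no filter on low genes, 1 S phase gene was higher over all cells from D14 to D21 and 1 lower in CM-like cells. With TMM, 2 S phase genes were higher and 13 G2/M genes lower from D14 to D21 over all cells. With a gate per cell, 2 S phase and 2 G2/M genes were lower in CM-like cells at the first step, and at the second 1 S phase gene was lower and 11 G2/M genes higher. The D21 sums were then 1113 CPM for G2/M in CM-like cells and 416 and 1277 for S phase and G2/M in stromal-like cells. At resolution 0.4, 11 G2/M genes were lower at the first step, 1 S phase gene at the second, and the D21 CM-like G2/M sum was 1137. With all variable genes, 4 G2/M genes were lower at the first step and 6 higher and 1 lower at the second. The D21 CM-like sums were then 321 (S phase) and 376 (G2/M), and the stromal-like G2/M sum was 1183.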
